A study of Mus musculus with 12 samples.

Results

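Complement is a set of secreted proteins and their receptors that tags particles and cells for removal and calls in immune cells. The 9 genes described here encode complement components, receptors and an inhibitor. The components are the chains of C1q (C1qa, C1qb and C1qc), the central component (C3) and 2 proteins of the alternative pathway (Cfb and Cfp). The others are the receptors for the anaphylatoxins (C3ar1 and C5ar1) and the C1 inhibitor (Serping1). The 9 genes were chosen by gene name from the 21834 genes of the deposited count table, and all 9 were found there.

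The libraries came from BV2 cells, an immortalized mouse microglial line. Stable lines had been made with a lentiviral vector and puromycin selection, carrying either a control shRNA (shCtrl) or 1 shRNA against Anxa2 (shAnxa2), the gene of the membrane- and calcium-binding protein Annexin A2. Each line was left untreated (CTRL) or taken through oxygen-glucose deprivation and reoxygenation (OGD/R), a culture model of ischemia and reperfusion, with 4 h in glucose-free medium at low oxygen and, per the labels, 12 h of reoxygenation in normal medium, for which the study's methods give a longer time. There were 3 libraries in each of the 4 groups, 12 in all, and with a single shRNA per arm an effect of Anxa2 and any other difference between the 2 lines cannot be told apart. The study's methods call the 3 libraries of a group biological replicates of 1 stable line, each made up of technical replicates, and do not say how the cultures were separated, so p-values measure the spread within a line. The libraries were grouped by their names. The columns of the deposited counts read shCTL for untreated and shCTL1-OGDR for treated control cells, and the reason for this difference is not given. The labels for cell type and genotype follow the treatment and not the shRNA, so that shCtrl libraries after OGD/R carry the words Anxa2 knockdown there.

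The treatment names of the libraries carry a doubt that bears on every OGD/R change, on the line differences within a treatment and on the interactions. Of the 5240 genes called for OGD/R in both lines, 5165 (98.6%) moved in opposite directions in the 2 lines. That share would be the same whichever line had its treatment names exchanged. Whether the names CTRL and OGDR are right in either line was not tested and cannot be settled from these counts. Values are therefore given as the libraries are named. A gene whose 6 shAnxa2 libraries all lie below its 6 shCtrl libraries, as held for C1qa, C1qb, C1qc and C3ar1, does so whichever way the treatments are named. The share of all genes tested with such a separation was not counted, so the separation alone does not set these genes apart.

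Total counts per library ranged from 19521877 to 27288843. Anxa2 was measured at 164.5, 174 and 177 CPM (counts scaled to the library's size by TMM) in untreated shCtrl cells and at 34.95, 44.4 and 41.8 CPM in untreated shAnxa2 cells. After OGD/R it reached 251, 294.5 and 291 CPM in shCtrl cells and 18.2, 20.1 and 20.6 CPM in shAnxa2 cells. The 6 libraries named shAnxa2 therefore had less Anxa2 than the 6 named shCtrl, by 4.25-fold without treatment and 14.2-fold after OGD/R. All 14 microglia and macrophage markers were measured above the filter on low values, with Csf1r at 388 to 589.6 CPM. Tmem119, P2ry12 and Cx3cr1, which mark microglia in the brain, were at 10.7 CPM or less. Aif1 and Itgam, also on this list, were low too, at 1.99 to 6.20 and 8.29 to 19.55 CPM. None of 5 astrocyte and none of 5 hepatocyte markers passed the filter, and 1 of 5 neuron (summed level of the list at most 1.33 CPM), 2 of 5 oligodendrocyte (at most 6.40 CPM, mostly Mbp) and 3 of 5 endothelium markers did. By Anxa2, no library went against the shRNA in its name.

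As background, the classical pathway starts when C1q binds a target, the alternative pathway amplifies itself on surfaces through factor B and properdin, and both cleave C3. In the brain, microglia are the main source of C1q, and C1q and C3 are known for tagging synapses and debris that microglia then remove. The cleavage products C3a and C5a act on receptors of microglia and other myeloid cells.

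C1qa, C1qb and C1qc lie next to each other on chromosome 4 and encode the A, B and C chains of the C1q molecule. In the coordinates of the deposited table (mm39 per the submitters' processing notes) they span chr4:136607440-136626114 on the minus strand, a stretch of 18675 bp in the order C1qb, C1qc, C1qa. The 250 bases before the RefSeq start site (build GRCm38.p6, minus strand) are shown for C1qb and C1qc because these genes carried the largest differences between lines among the well-counted genes described here. The C1qb stretch is chr4:136886201-136886450 and the C1qc stretch is chr4:136892915-136893164. Capitals mark GAGGAA or its reverse complement, the core searched for the myeloid factor PU.1, and the NF-κB consensus.
C1qb: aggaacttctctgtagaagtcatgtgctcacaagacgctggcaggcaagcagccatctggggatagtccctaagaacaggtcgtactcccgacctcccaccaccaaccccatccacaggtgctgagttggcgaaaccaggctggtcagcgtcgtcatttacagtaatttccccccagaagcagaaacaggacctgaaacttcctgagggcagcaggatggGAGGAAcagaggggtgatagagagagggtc
C1qc: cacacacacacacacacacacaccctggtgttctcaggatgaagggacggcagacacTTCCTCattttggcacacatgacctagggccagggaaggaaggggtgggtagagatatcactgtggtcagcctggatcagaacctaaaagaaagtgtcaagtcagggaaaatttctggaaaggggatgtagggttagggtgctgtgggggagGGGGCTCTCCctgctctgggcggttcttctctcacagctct
Counted from the start site, GAGGAA stood at -30 to -25 in C1qb. Its reverse complement stood at -193 to -188 in C1qc, where the NF-κB consensus match lay at -41 to -32. On both strands, GAGGAA was present in 23.3% and the NF-κB consensus in 7.25% of 32851 RefSeq promoter windows of the same length. These matches are descriptions of the letters, not of binding.

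C1qb and C1qc were several-fold lower in shAnxa2 than in shCtrl cells, with or without OGD/R. C1qb (ENSMUSG00000036905) was at 55.1, 45.2 and 47.8 CPM in untreated shCtrl cells and at 8.70, 6.88 and 8.10 CPM in untreated shAnxa2 cells. After OGD/R it was at 42.9, 52.5 and 47.3 CPM in shCtrl cells and at 11.1, 9.34 and 10.5 CPM in shAnxa2 cells. Every shAnxa2 library lay far below every shCtrl library. The difference was a log2 fold change of -2.64 (SE 0.101, adjusted p = 3.2e-16) without treatment and -2.21 (SE 0.0984, adjusted p = 2.05e-15) after OGD/R, or 6.24-fold and 4.64-fold lower. Adjusted p-values here and elsewhere are those of the edgeR quasi-likelihood test, adjusted by the Benjamini-Hochberg method over the 11626 genes tested, and a gene is called when the adjusted p is under 0.05.

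C1qc (ENSMUSG00000036896) gave a like picture, at 44.2, 36.3 and 38.85 CPM in untreated shCtrl cells and 6.355, 7.505 and 7.62 CPM in untreated shAnxa2 cells. After OGD/R the values were 32.9, 37.4 and 31.0 CPM in shCtrl cells and 11.5, 9.93 and 11.7 CPM in shAnxa2 cells. The lines did not overlap under either treatment. C1qc was 5.53-fold lower in shAnxa2 cells without treatment (log2 fold change -2.47, SE 0.102, adjusted p = 1.1e-15) and 3.07-fold lower after OGD/R (log2 fold change -1.62, SE 0.0974, adjusted p = 4.1e-13).

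C1qa (ENSMUSG00000036887) was counted far less often. Its counts were 43, 51 and 75 in untreated shCtrl cells, 32, 42 and 22 in shCtrl cells after OGD/R, 1, 4 and 16 in untreated shAnxa2 cells, and 8, 12 and 14 in shAnxa2 cells after OGD/R. Within each treatment no shAnxa2 library reached the lowest shCtrl library. It was lower by a log2 fold change of -2.76 (SE 0.404, adjusted p = 2.8e-06) without treatment and -1.36 (SE 0.399, adjusted p = 0.00435) after OGD/R. Of its 21 counts in untreated shAnxa2 cells, 16 came from library 3, and without that library the untreated difference was -4.09.

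A called decrease of at least 1 on the log2 scale in shAnxa2 cells under both treatments was found for 52 genes, 0.447% of those tested, and C1qa, C1qb and C1qc were among them. The nearest genes tested on either side of the cluster, named after their values were seen, showed no such drop. Kdm1a, 277406 bp away, differed between lines by 0.26 on the log2 scale without treatment and -0.41 after OGD/R, and Zbtb40, 80929 bp away, by -0.37 and 0.48. The summed level of the 14 microglia and macrophage markers also differed between lines, at 2153 to 2260 CPM in the 6 shAnxa2 libraries and 2444 to 2665 CPM in the 6 shCtrl libraries. Single markers varied widely over the libraries, such as Adgre1 from 129 to 407 CPM, so the sum need not stand for each marker. The part of this sum in the C1q difference was not tested. In RNA from whole cultures, fewer cells that express a gene and less RNA of it per cell cannot be told apart.

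With OGD/R itself, C1qb and C1qc rose in shAnxa2 cells and C1qc fell slightly in shCtrl cells. In shCtrl cells C1qb was not called (log2 fold change -0.05, SE 0.0827, adjusted p = 0.606), and its 3 and 3 libraries overlapped. C1qc fell by 0.23 on the log2 scale (SE 0.0845, adjusted p = 0.0199), with overlapping libraries, and this call was lost when library 1 of either group or library 3 of the OGD/R group was left out. In shAnxa2 cells C1qb rose by 0.38 (SE 0.120, adjusted p = 0.00994) and C1qc by 0.62 (SE 0.117, adjusted p = 9.04e-05), and the treated libraries lay above the untreated ones. The C1qb call was lost without library 2 of the untreated shAnxa2 group. C1qa was not called in either line, at -0.68 (SE 0.302, adjusted p = 0.0535) in shCtrl and 0.72 (SE 0.536, adjusted p = 0.265) in shAnxa2 cells, and without library 3 of the untreated shAnxa2 group the latter was 2.05 and was called. The former was called in 4 of the 12 fits that left out 1 library, without library 1 of the untreated or 2 of the treated shCtrl group or library 1 or 3 of the untreated shAnxa2 group.

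The 3 chains assemble in equal amounts in the C1q molecule, whereas the counts per kilobase of exon were unequal. These ratios depend on the length used, the union of annotated exons, which is 1088 bp for C1qb and 1931 bp for C1qc. Before division by length, untreated shCtrl cells had means of 49.4 CPM of C1qb and 39.8 CPM of C1qc. No other length was tried. The ratio of C1qb to C1qc per kilobase was 2.18 to 2.21 in untreated shCtrl cells, 2.32 to 2.71 in shCtrl cells after OGD/R, 1.63 to 2.43 in untreated shAnxa2 cells and 1.58 to 1.71 in shAnxa2 cells after OGD/R. After OGD/R the ratios of the 2 lines did not overlap, with the lower ratio in shAnxa2 cells. C1qa reached 0.588% to 8.21% of the C1qb level per kilobase over the 12 libraries.

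**Figure D1:**
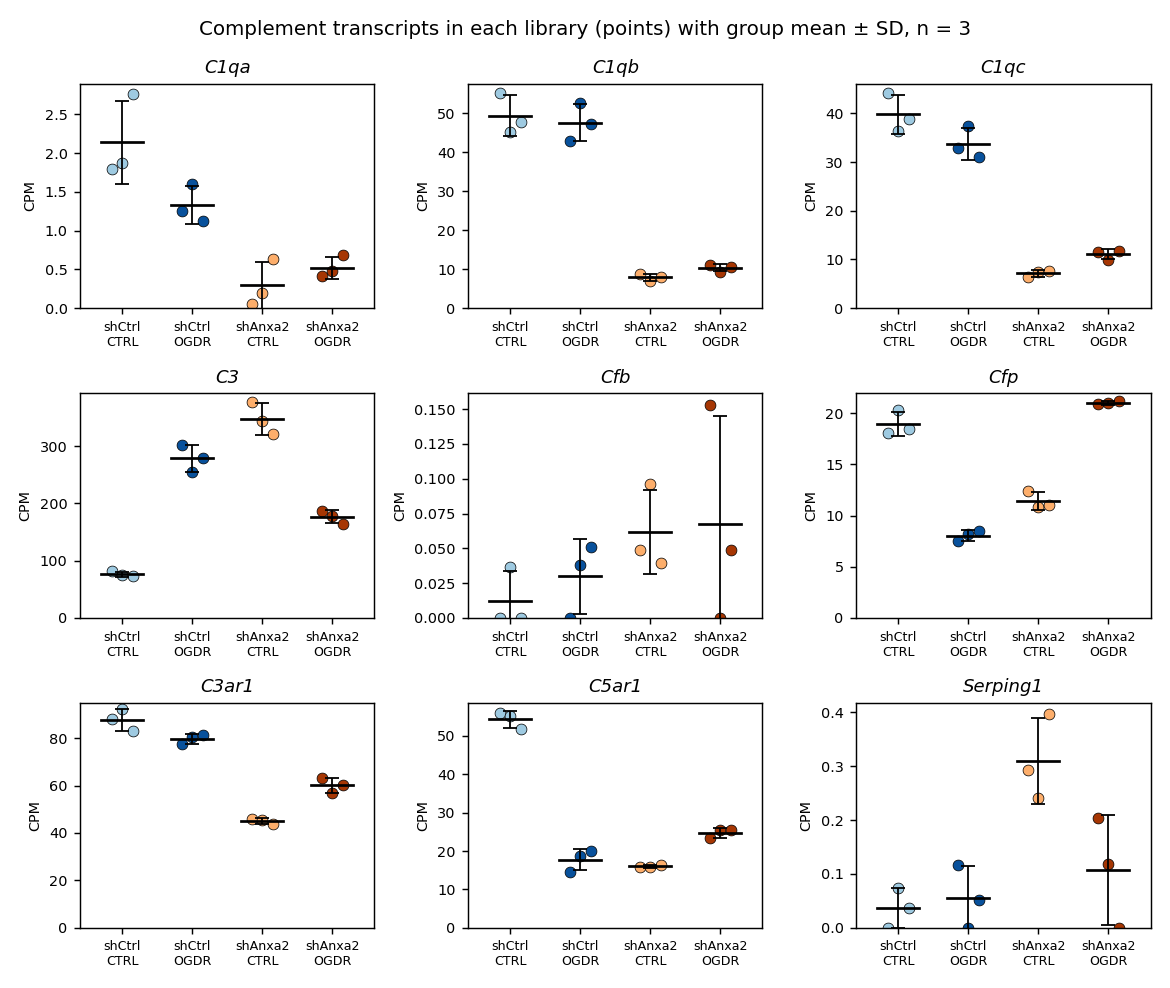
TMM-scaled CPM of each of the 9 complement genes, 1 panel per gene with its own axis from 0. Points are libraries, and the bar and whiskers are the mean and SD of 3 libraries (whiskers that would pass below 0 stop at the axis). C1qb stays at 42.9 CPM or more in shCtrl cells and at 11.1 CPM or less in shAnxa2 cells, while C3 is lowest in untreated shCtrl cells and Cfb and Serping1 rest on a few counts.

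C3 (ENSMUSG00000024164, chr17:57510970-57535136 in the table's coordinates, minus strand) encodes the component on which the pathways converge, and it had 60340 counts over the 12 libraries. The 250 bases before its RefSeq start site, chr17:57228137-57228386 in GRCm38.p6 on the minus strand, are shown because C3 had the largest change with OGD/R of the 9 genes. Capitals mark TTGCNNAA, the core searched for C/EBP factors.
C3: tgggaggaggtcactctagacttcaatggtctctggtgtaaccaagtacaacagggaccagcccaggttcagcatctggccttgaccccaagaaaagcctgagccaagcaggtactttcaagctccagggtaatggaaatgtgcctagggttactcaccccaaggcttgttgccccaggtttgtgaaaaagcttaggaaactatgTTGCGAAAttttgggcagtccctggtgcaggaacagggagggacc
This match lay at -45 to -38 from the start site, and 9.56% of the 32851 promoter windows held one on either strand. ACGTG, the core searched for the hypoxia-inducible factor, was not in the printed stretch of C3, C1qb or C1qc, and 16.6% of promoter windows held it.

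C3 rose with OGD/R in shCtrl cells and fell with it in shAnxa2 cells, from a much higher untreated level. Untreated shCtrl cells had 81.2, 75.7 and 72.5 CPM, and shCtrl cells after OGD/R had 302, 255 and 280.3 CPM. Untreated shAnxa2 cells had 377, 343 and 321 CPM, and shAnxa2 cells after OGD/R had 187, 179 and 164 CPM. The 4 groups did not overlap, with untreated shAnxa2 cells highest and untreated shCtrl cells lowest. In shCtrl cells the rise with OGD/R was 3.65-fold (log2 fold change 1.87, SE 0.0678, adjusted p = 8.22e-17). In shAnxa2 cells C3 was 1.97-fold lower after OGD/R (log2 fold change -0.97, SE 0.0653, adjusted p = 1.68e-11). The study also measured C3 in BV2 cells after OGD/R. Of the immune genes followed there, it reported robust upregulation for Anxa2 mRNA alone, and no significant change in C3 protein. In the counts used here Anxa2 rose 1.62-fold with OGD/R in shCtrl cells, less than C3. The study describes no shRNA in that experiment and a longer reoxygenation in its methods, so the measurements are not alike.

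Between the lines, C3 was 4.54-fold higher in shAnxa2 cells without treatment (log2 fold change 2.18, SE 0.0682, adjusted p = 9.72e-18). After OGD/R it was 1.58-fold lower in shAnxa2 than in shCtrl cells (log2 fold change -0.66, SE 0.0651, adjusted p = 3.01e-09). The direction of the difference between lines thus depended on the treatment, and the test of that dependence, the OGD/R change in shAnxa2 minus that in shCtrl cells, gave -2.84 (SE 0.0940, adjusted p = 7.65e-18). The OGD/R changes and the line differences share libraries, so they are not separate evidence.

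Cfp and Cfb belong to the alternative pathway, in which properdin, the product of Cfp, stabilizes the convertase that contains factor B, the product of Cfb. Cfp (ENSMUSG00000001128, chrX:20791693-20797794) went the opposite way to C3 in both lines. It was at 18.1, 20.3 and 18.5 CPM in untreated shCtrl cells and 7.47, 8.205 and 8.45 CPM after OGD/R. In shAnxa2 cells it was at 12.4, 10.8 and 11 CPM without treatment and 20.9, 21.0 and 21.2 CPM after OGD/R. No group overlapped another. Cfp fell 2.36-fold with OGD/R in shCtrl cells (log2 fold change -1.24, SE 0.0917, adjusted p = 2.61e-11) and rose 1.84-fold in shAnxa2 cells (log2 fold change 0.88, SE 0.0889, adjusted p = 1.34e-08). Between lines it was lower in shAnxa2 cells without treatment, at -0.73 (SE 0.0884, adjusted p = 1.51e-07), and higher after OGD/R, at 1.39 (SE 0.0923, adjusted p = 2.58e-12). The summed level of 5 endothelial markers had the same order of groups, at 167 to 171 CPM in untreated shCtrl, 61.3 to 68.0 in shCtrl after OGD/R, 116 to 124 in untreated shAnxa2 and 227 to 228 CPM in shAnxa2 after OGD/R. Nearly all of it was Kdr, at 60.7 to 226 CPM, and Pecam1, Cdh5, Tek and Cldn5 were at 1.89 CPM or less in every library, with Cldn5 at 0 in some. The part of either in the Cfp result was not tested.

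Cfb (ENSMUSG00000090231, chr17:35075350-35081494) was close to undetected. Its counts were 0, 1 and 0 in untreated shCtrl cells, 0, 1 and 1 after OGD/R, 1, 2 and 1 in untreated shAnxa2 cells and 3, 0 and 1 in shAnxa2 cells after OGD/R, 11 in all. No group could be told from another, and a count of 0 still allows up to 3 counts in a library. In the GENCODE M21 annotation, 79.5% of the exonic bases of Cfb are shared with the read-through gene Gm20547 on the same strand, which had 0 counts in every library. How reads in shared exons were assigned is not given in the sources used here, so the Cfb counts may be too low and are uncertain.

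C3ar1 and C5ar1 encode G protein-coupled receptors for the anaphylatoxins C3a and C5a. C3ar1 (ENSMUSG00000040552, chr6:122824097-122833120) was at 87.9, 92.2 and 83.0 CPM in untreated shCtrl cells and 77.4, 80.5 and 81.5 CPM after OGD/R. In shAnxa2 cells it was at 45.85, 45.5 and 43.6 CPM without treatment and 63.2, 56.8 and 60.3 CPM after OGD/R. All shAnxa2 libraries were below all shCtrl libraries. Without treatment C3ar1 was 1.95-fold lower in shAnxa2 cells (log2 fold change -0.96, SE 0.0559, adjusted p = 5.62e-13), and after OGD/R 1.33-fold lower (log2 fold change -0.41, SE 0.0552, adjusted p = 4.92e-07). OGD/R raised it 1.34-fold in shAnxa2 cells (log2 fold change 0.42, SE 0.0574, adjusted p = 1.51e-06). In shCtrl cells the change was -0.14 (SE 0.0535, adjusted p = 0.0292), a call that was lost when library 1 or 2 of either shCtrl group was left out.

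C5ar1 (ENSMUSG00000049130, chr7:15980668-15993465) was the receptor gene that moved most. The 250 bases before its RefSeq start, chr7:16259339-16259588 in GRCm38.p6 on the minus strand, are shown in full for that reason and hold none of the 4 motifs searched, so there are no capitals. That says only that these letters are not in this window.
C5ar1: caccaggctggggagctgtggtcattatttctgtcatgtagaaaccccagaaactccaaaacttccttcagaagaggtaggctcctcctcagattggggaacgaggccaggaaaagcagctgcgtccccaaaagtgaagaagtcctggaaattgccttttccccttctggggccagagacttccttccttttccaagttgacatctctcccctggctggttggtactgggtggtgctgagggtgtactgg
Untreated shCtrl cells had 55.9, 55.1 and 51.9 CPM of C5ar1 and shCtrl cells after OGD/R had 14.7, 18.7 and 20.0 CPM. Untreated shAnxa2 cells had 15.9, 15.7 and 16.4 CPM and shAnxa2 cells after OGD/R had 23.3, 25.55 and 25.5 CPM. Untreated shCtrl cells stood above the other 9 libraries, and untreated shAnxa2 cells lay within the range of shCtrl cells after OGD/R. C5ar1 fell 3.07-fold with OGD/R in shCtrl cells (log2 fold change -1.62, SE 0.0832, adjusted p = 4.66e-14) and rose 1.55-fold in shAnxa2 cells (log2 fold change 0.63, SE 0.0899, adjusted p = 2.54e-06). In shAnxa2 against shCtrl cells it was 3.38-fold lower without treatment (log2 fold change -1.76, SE 0.0847, adjusted p = 1.89e-14) and 1.40-fold higher after OGD/R (log2 fold change 0.49, SE 0.0883, adjusted p = 3.31e-05).

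Serping1 (ENSMUSG00000023224, chr2:84595731-84605788) encodes the C1 inhibitor, which blocks the proteases that C1q activates. Its counts were 0, 2 and 1 in untreated shCtrl cells, 3, 0 and 1 after OGD/R, 6, 5 and 10 in untreated shAnxa2 cells and 4, 3 and 0 in shAnxa2 cells after OGD/R. The untreated shAnxa2 libraries were the highest, at 10 counts or fewer of more than 19521877. Like Cfb it did not pass the filter of 0.5 CPM in 3 libraries and was not tested. With no filter beyond any count, its difference between untreated lines was 2.89 (SE 1.01, adjusted p = 0.0112), and none of its other comparisons and none of those of Cfb was called.

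Of the 9 genes, 7 passed the filter. With OGD/R in shCtrl cells 1 of the 7 rose (C3) and 4 fell (C1qc, Cfp, C3ar1 and C5ar1), where 32.4% of all genes tested rose and 31.0% fell. In shAnxa2 cells 5 rose (C1qb, C1qc, Cfp, C3ar1 and C5ar1) and 1 fell (C3), against 28.2% and 26.8% of all genes. Between untreated lines 1 was higher with the Anxa2 shRNA (C3) and 6 were lower, beside 29.5% and 29.7% of all genes. Between treated lines 2 were higher (Cfp and C5ar1) and 5 were lower, beside 33.8% and 34.2%. So many genes passed in each comparison that a count of calls says little about these 7.

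Larger changes were rarer among all genes. Counting only calls of 2-fold or more (1 on the log2 scale), 1 of the 7 genes rose and 2 fell with OGD/R in shCtrl cells (4.65% and 2.08% of all genes), and none rose or fell in shAnxa2 cells (0.809% and 2.74%). Without treatment 1 was higher and 4 were lower in shAnxa2 cells (3.84% and 1.83%), and after OGD/R 1 was higher and 3 were lower (3.66% and 6.43%). The median log2 fold change of the 7 was -0.23 and 0.62 for OGD/R in shCtrl and shAnxa2 cells, and -1.76 and -0.66 for shAnxa2 against shCtrl cells without and with OGD/R. The median over all genes tested lay between -0.0033 and 0.0045 in these comparisons.

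**Figure D2:**
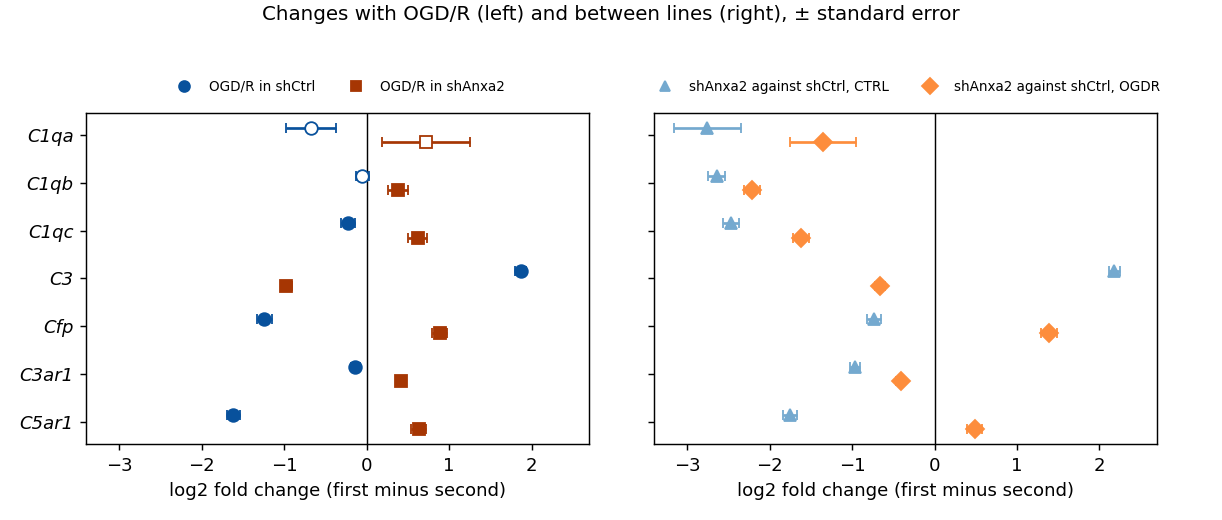
Log2 fold change with its standard error for the 7 complement genes tested, for OGD/R in each line (left) and shAnxa2 against shCtrl cells under each treatment (right). Filled symbols have an adjusted p under 0.05, and C3 lies on the opposite side of 0 from Cfp and C5ar1 in every comparison.

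The change with OGD/R was compared between the lines by the interaction term, the change in shAnxa2 minus that in shCtrl cells. It was called for all 7 genes, 6 of them positive and 1 negative, where 34.9% of all genes were called positive and 35.1% negative. With a size of at least 1 there were 3 positive (C1qa, Cfp and C5ar1) and 1 negative (C3), beside 8.83% and 12.7% of all genes. C5ar1 had 2.24 (SE 0.122, adjusted p = 5.81e-14) and Cfp 2.12 (SE 0.128, adjusted p = 3.3e-13). For C1qc the term was 0.85 (SE 0.144, adjusted p = 1.3e-05), for C3ar1 0.55 (SE 0.0785, adjusted p = 9.97e-07) and for C1qb 0.43 (SE 0.146, adjusted p = 0.0115). C1qa, at 1.40 (SE 0.616, adjusted p = 0.0466), lost its call in 7 of the 12 fits that left out 1 library (range 0.94 to 2.73), and C1qb lost its call without library 2 of the untreated shAnxa2 group.

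The levels of the 9 genes were ordered as CPM per kilobase of exon, an order that depends on the exon lengths used. In untreated shCtrl cells C1qb came first at 45.4 ± 4.75 CPM per kilobase (SD, n = 3), followed by C5ar1 at 21.1 ± 0.825, C1qc at 20.6 ± 2.10 (SD, n = 3 each) and C3ar1, C3, Cfp and C1qa. C5ar1, C1qc and C3ar1 overlapped in their libraries there. In the other 3 groups C3 came first, at 54.3 ± 4.52 in shCtrl cells after OGD/R, 67.5 ± 5.48 in untreated shAnxa2 cells and 34.3 ± 2.22 CPM per kilobase in shAnxa2 cells after OGD/R. C1qb came next after C3 in shCtrl cells after OGD/R. In untreated shAnxa2 cells it followed C3 and C3ar1 and overlapped with Cfp, which overlapped with C5ar1, and in shAnxa2 cells after OGD/R it stood behind Cfp and C5ar1 and overlapped with the latter. C3ar1 overlapped with C1qc in shCtrl cells after OGD/R and stood alone as the second gene in both shAnxa2 groups. C1qa, Serping1 and Cfb were the last in every group.

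**Figure D3:**
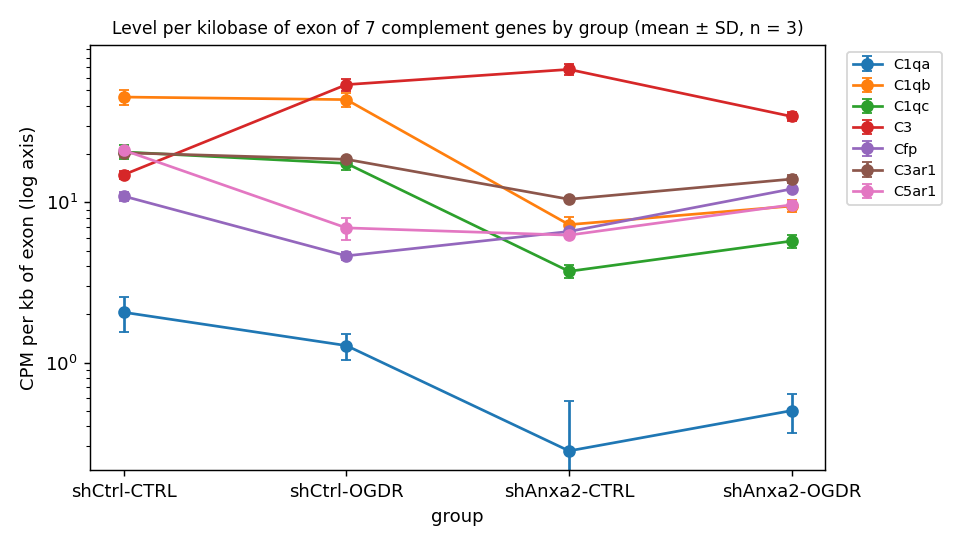
Mean level per kilobase of exon with the SD of 3 libraries (log axis) for the 7 complement genes that passed the filter, in the 4 groups. C1qb is highest in untreated shCtrl cells at 45.4 CPM per kilobase and C3 is highest in the other 3 groups, and lines join the groups of 1 gene only to guide the eye.

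For the other genes of the complement system a list of 45 was used, of which 44 were in the table, 9 had a count of 0 in every library and 20 were tested. With OGD/R in shCtrl cells 8 of the 20 rose and 4 fell, beside 32.4% and 31.0% of all genes, and in shAnxa2 cells 3 rose and 11 fell, beside 28.2% and 26.8%. The comparison of lines gave 6 higher and 5 lower in shAnxa2 cells without treatment (29.5% and 29.7% of all genes), and 3 higher and 11 lower with it (33.8% and 34.2%). Of the 6 terminal pathway genes only C8g was tested, and 4 were at 0 in every library.

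C5ar2, which encodes the second receptor for C5a, adjoins C5ar1 on chromosome 7. It fell by 1.24 on the log2 scale with OGD/R in shCtrl cells (SE 0.165, adjusted p = 4.8e-07), beside -1.62 for C5ar1. Its change in shAnxa2 cells was 0.30 (SE 0.198, adjusted p = 0.213), which was not called, except without library 1 of the untreated group (0.53). It was lower in untreated shAnxa2 than shCtrl cells by -1.53 (SE 0.173, adjusted p = 5.21e-08) and did not differ detectably after OGD/R (0.01, SE 0.189, adjusted p = 0.977).

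Several genes went the way of C3. A change of sign between the lines was the rule, found for 98.6% of the 5240 genes called for OGD/R in both. Cd93, a surface glycoprotein once taken for a C1q receptor, rose with OGD/R in shCtrl cells by 1.27 and fell in shAnxa2 cells by 1.24 on the log2 scale, from 13.3 ± 0.403 to 32.0 ± 1.35 and from 20.4 ± 0.660 to 8.60 ± 1.40 CPM (SD, n = 3 each). C1rl, a C1r-like protease, changed by 1.57 and -1.47, and C8g by 1.52 and -0.76, with overlapping libraries in the latter. Clu, which encodes clusterin, an inhibitor of the membrane attack complex, changed by 0.61 and -0.33, and Cd59a, which encodes another such inhibitor, by 0.67 and -0.63. Each of these changes was called, though that of Cd59a in shAnxa2 cells was lost without library 1 of the untreated group (-0.45) or library 3 of the OGD/R group (-0.53). Fcna, a ficolin of the lectin pathway, fell by 1.41 in shAnxa2 cells and was not called in shCtrl cells (0.45, adjusted p = 0.0615), where leaving out library 3 of the OGD/R group, or library 1 or 3 of the untreated shAnxa2 group, gave a call at 0.45 to 0.53.

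Cfd, which encodes factor D, the protease that cleaves factor B, went the way of Cfp at a far lower level. It fell by 1.98 in shCtrl cells and rose by 1.60 in shAnxa2 cells on the log2 scale, on counts of 3 to 30 per library. Its libraries overlapped in shAnxa2 cells, where library 2 of the OGD/R group held 30 of the 46 counts and the call was lost without it, at 0.81, or without library 1 of the untreated group, at 1.40. Itgax, a chain of complement receptor 4, was lower in shAnxa2 cells in both treatments, by 0.53 and 1.30. Another 3 genes, like Clu above, were named only for the highest CPM in their lists, whatever their length. In the 4 comparisons Colec12, a scavenger receptor with a collectin domain, differed by 0.27 or less in size and C1qbp, which binds the globular heads of C1q, by 0.26 or less, and C4b, which encodes the C4 component, was called in none.

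**Figure D4:**
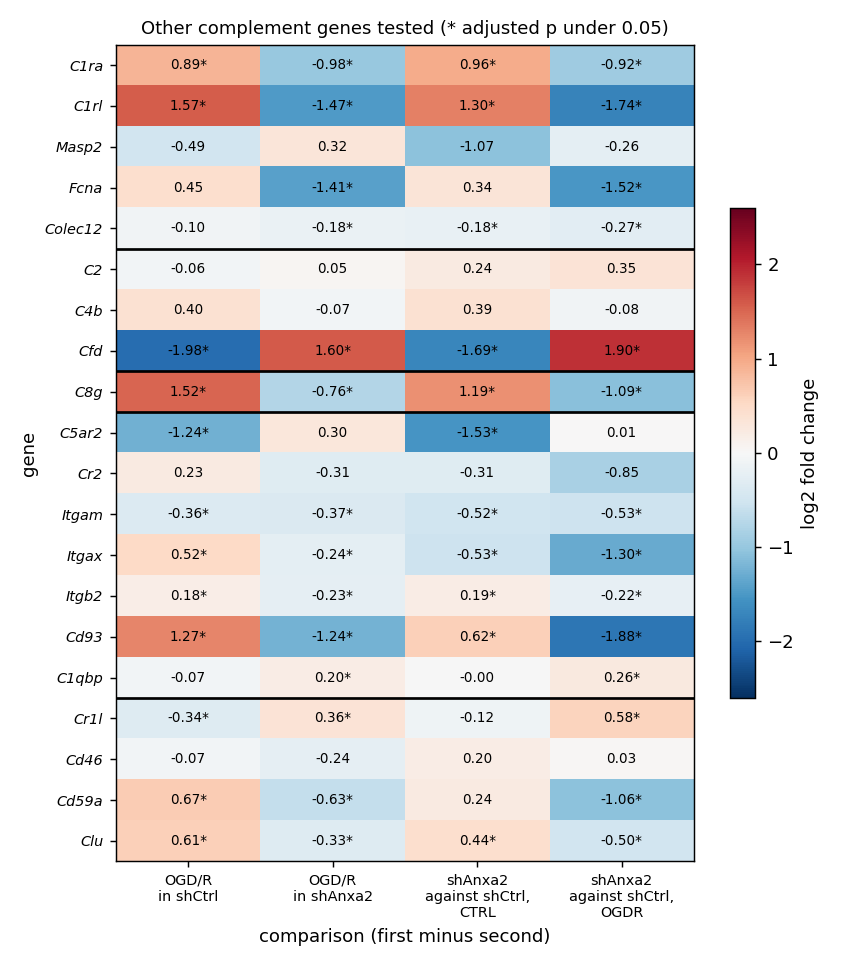
Log2 fold changes of the 20 other complement genes tested in 4 comparisons, with black lines between initiation, central, terminal, receptor and regulator genes and an asterisk at an adjusted p under 0.05. Cd93 (1.27 and -1.24) and C1rl (1.57 and -1.47) change sign between the lines with OGD/R, as do 98.6% of all genes called in both.

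For the 4 genes with an interaction of at least 1 in size, the closest profiles over the 12 libraries were sought among 10741 genes, by the root mean square difference of centred log2(CPM + 0.1). C3 lay closest to Slpi (0.112), Gdf15 (0.150) and Tst (0.185), where its own profile had a root mean square of 0.839. C5ar1 lay closest to Rgs2 (0.185), Rgs1 (0.224) and Ivl (0.225), with 0.697 for its own profile. Cfp lay closest to Rrm2 (0.0891), Creld2 (0.0961) and Qtrt2 (0.101), with 0.562 for its own. For C1qa the closest was C1qc (0.505), followed by Capn2 (0.547) and Hdac9 (0.559), with 1.20 for its own, so its likeness was loose.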

How the data were processed

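RNA of BV2 cells was sequenced in 12 libraries, 3 for each of 4 groups named by shRNA and treatment. The authors deposited raw counts of reads per gene for 21834 genes, without normalization. The submitters' processing notes name HISAT2 2.0.4 and the build mm39, whereas the methods of the study, which describe the sequencing of hippocampi, name Tophat and HTSeq. The handling of strand and of multi-mapped reads is not given in the sources used here, so near-identical copies (C1ra and C1rb, C1s1 and C1s2, Cd59a and Cd59b) and overlapping genes are uncertain. A further 12 per-sample columns of normalized values were not used.

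Counts were tested with edgeR 4.0.16 in R 4.3.3: TMM scaling, a minimum of 0.5 CPM in 3 libraries or more, which 11626 genes passed, a quasi-likelihood fit to all 12 libraries with a coefficient per group, and Benjamini-Hochberg adjustment over all genes tested. The common biological coefficient of variation was 5.35%. The standard error is the log2 fold change divided by the square root of F. Levels are TMM-scaled CPM, and levels per kilobase use the union of GENCODE M21 exons. Correlations within groups were 0.994 or higher, and replicates differed by more than counting noise, with a chi-square per gene of 3.96 or more, so no library was counted as the same reads deposited again. Same-numbered libraries did not deviate together, so no pairing was used.

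The genes and lists were chosen with earlier results of these data known. Named are the 9 genes, Anxa2, other complement genes called in any comparison of 2 groups with a change of 2-fold or more, the gene of the highest CPM in each list, and, for genes with a called interaction of that size, the 3 nearest profiles among genes whose mean reached 1 CPM. A gene of the lists is not reported here. Kdm1a and Zbtb40 were added after their values were seen. Alternatives were median-of-ratios size factors, no filter or a filter of 5 CPM, the replicate block, fits of only the groups compared, limma 3.58.1 voom, DESeq2 1.42.0, CPM by library total, a pseudocount of 1 and leaving out each library. RefSeq promoter windows (GRCm38.p6) were found for 6 of the 9 genes. Those of Cfp and C3ar1, which are not printed, held none of the 4 motifs searched, as was the case for C5ar1. Tables and plots were made with Python 3.11.15, numpy 2.4.6, pandas 2.3.3 and matplotlib 3.10.9.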

Additional observations from a re-analysis of the deposited data

Results flagged for a closer look

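For 18 of the genes named by rule, the OGD/R change differed between the lines by the interaction term of edgeR's quasi-likelihood fit. The term is given here as the log2 change in shAnxa2 minus that in shCtrl cells, with 3 libraries per group. Among the complement components and receptors described above it was 1.40 for C1qa, 0.43 for C1qb, 0.85 for C1qc, -2.84 for C3, 2.12 for Cfp, 0.55 for C3ar1 and 2.24 for C5ar1. Anxa2 itself had -1.74. Of the 20 other complement genes tested, 9 were called with a negative and 4 with a positive difference. These include C1ra at -1.87, Itgb2 at -0.41 and Cr1l at 0.70, which the rule did not name. Among those named by rule, negative differences were found for C1rl at -3.04, Cd93 at -2.50, C8g at -2.28, Fcna at -1.86, Cd59a at -1.30, Clu at -0.94 and Itgax at -0.77. Positive differences among them were found for Cfd at 3.58, C5ar2 at 1.54 and C1qbp at 0.27. Such a difference was common, with 8136 of the 11626 genes tested called. Groups of 3 libraries were not searched for single libraries far from the others.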

How the results depend on the processing

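Of 653 values of the 7 tested genes under the alternatives, 628 kept their direction and their side of the threshold, 16 were no longer called, 7 became called and 2 turned sign. Median-of-ratios size factors, voom and DESeq2 each kept 35 of 35. With the replicate number as a block, 35 of 35 were kept as well, and 5, 6, 7 and 7 of the 7 genes were called in the OGD/R comparisons in shCtrl and shAnxa2 cells and the line comparisons without and with OGD/R. The block left 7355 genes called for OGD/R in shCtrl cells (7373 without it), and 1 of 18 same-numbered pairs had a correlation of deviations over 0.1 (range -0.0513 to 0.135), so the numbers were not shown to pair the libraries.

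The filter of 5 CPM, which tests fewer genes and not C1qa, left 434, 170, 320 and 675 genes called at 2-fold or more in the same order of comparisons (783, 412, 660 and 1172 with 0.5 CPM), and moved the median of the tested complement genes to -1.35 and -0.545 between lines without and with OGD/R and to 0.69 for the interaction. Without a filter 1 gene, C3 at -1.01, passed the limit of 1 for OGD/R in shAnxa2 cells (0 to 2 genes when leaving out 1 library), and C1qa was called for OGD/R in shCtrl cells, as it was in the fit of those 2 groups. Leaving out 1 library gave 3 to 6 calls for OGD/R in shCtrl cells, the fewest without library 1 of the OGD/R group, and a median of 0.45 to 0.65 for OGD/R in shAnxa2 cells.

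Values near 0 changed sign. C1qb with OGD/R in shCtrl cells ranged from -0.13 to 0.0316 when leaving out 1 library, and C4b from -0.30 to 0.17 with OGD/R in shAnxa2 cells and from -0.31 to 0.16 between lines after OGD/R. C1qbp between untreated lines was 0.0019 by median-of-ratios, 0.008 without a filter, 0.0043 at 5 CPM, 0.0041 in the fit of 2 groups and 0.002 by DESeq2, and from -0.0595 to 0.0413 when leaving out 1 library. C5ar2 between lines after OGD/R was -0.0085 without a filter and -0.0017 at 5 CPM, and from -0.0797 to 0.11 when leaving out 1 library. The cause was not tested. With a pseudocount of 1, the 3 closest profiles shared 0 genes with the list given for C1qa, 1 for Cfp and 1 for C5ar1. CPM by library total moved 1 of 36 group levels beyond its SD, Cfp in shAnxa2 cells after OGD/R, to 20.7.

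Precision is limited by 3 libraries per group, and by low counts for Cfb and Serping1 (10 or fewer per library), C1qa (1 to 16 in shAnxa2 libraries) and Cfd (3 to 30). No batch is named in the labels, and one that coincided with the groups could not be separated from them. The data are transcript counts, and complement protein was not analysed here.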
